A study of Mus musculus with 4 samples.

Results

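The subunits of the respiratory chain and ATP synthase were examined in group 2 innate lymphoid cells (ILC2s), tissue lymphocytes that lack antigen receptors and secrete IL-5 and IL-13, sorted from the large intestine of WT C57BL/6 mice. The genes were chosen by name: nuclear symbols of complex I (Nduf), complex II (Sdh), complex III (Uqcr), complex IV (Cox4 to Cox8) and ATP synthase (Atp5), and the protein-coding genes of the mitochondrial genome. Of the 27179 genes in the table, 101 were members, 88 of them nuclear and 13 mitochondrial, and 3 symbols ending in a pseudogene suffix were dropped. Symbols without that suffix were kept, among them Ndufb4c and Ndufs6b, which GENCODE M21 annotates as processed pseudogenes. The nuclear members comprised 39 of complex I, 4 of complex II, 8 of complex III, 20 of complex IV and 17 of complex V (ATP synthase). Ndufa4 and Ndufa4l2 carry complex I names but were counted with complex IV, where the NDUFA4 protein is now placed. Before treatment, all cells spent 5 days in culture with the alarmins IL-33 and IL-25 and with IL-7 and IL-2. Some of the cells then received deoxycholic acid (DCA), a secondary bile acid made by gut bacteria, at 100 μM. The libraries without DCA are titled Ctrl and are called vehicle here, although the published RNA-Seq methods name no vehicle. The deposited design gives 16 hours of treatment and the published methods give 24 hours. There were 2 vehicle libraries and 2 DCA libraries, and no source says whether they came from separate mice or cultures, so the p-values measure only the spread between these libraries.

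The respiratory chain passes electrons from NADH and succinate to oxygen and pumps protons across the inner mitochondrial membrane, and ATP synthase uses that gradient to make ATP. Complexes I, III, IV and V are built from subunits encoded in both genomes, whereas complex II is wholly nuclear. The mitochondrial subunits are transcribed inside the organelle from long polycistronic RNAs by the polymerase POLRMT, and the nuclear ones are transcribed singly in the nucleus and imported as proteins.

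Library totals lay between 26564059 and 35838342 counts in 3 libraries, and DCA replicate 2 held 244165712. Levels are given as CPM, each count divided by the library total and set to a common scale, corrected with TMM, a factor that removes differences in library composition, and comparisons of level between genes use CPM per kilobase of the principal transcript. All 11 ILC2 markers were expressed, among them Gata3 at 839, 656, 599 and 823 CPM, where here and below the 4 values are vehicle replicates 1 and 2 and then DCA replicates 1 and 2. Of the lists for other cells, 2 of 9 T cell, 2 of 6 B cell, 3 of 7 macrophage and monocyte, 1 of 6 epithelial, 3 of 7 mast cell and basophil and 4 of 5 ILC3 genes had no count in any library. The B cell list summed to 86.5, 49.6, 51.4 and 63.9 CPM, mostly from Cd79b. The mast cell and basophil list summed to 362, 283, 302 and 159 CPM, nearly all of it Kit at 359, 279, 297 and 158 CPM. Epithelial genes summed to 7.73 to 13.5 CPM. Of the macrophage and monocyte list, 1 of 7 genes passed the level filter, Cd68, and the summed level of the list was 23.97 to 24.6 CPM in the vehicle libraries and 7.30 to 10.2 CPM in the DCA libraries. The T cell list summed to 22.4 and 58.3 CPM with vehicle, against 42.4 and 30.9 CPM with DCA, mostly from Cd3g and Trbc2, with Cd4 and Cd8a at 0. The part of these genes in the results was not tested.

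Both sets of members were expressed in every library, and together they took several percent of the counts. Mitochondrial members made up 2.11% and 1.46% of the counts with vehicle and 1.03% and 1.24% with DCA, so both DCA libraries lay below both vehicle libraries. Nuclear members made up 1.97% and 2.29% with vehicle and 2.10% and 2.57% with DCA, which overlapped. In a bulk sample, fewer cells and less RNA per cell cannot be told apart.

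The mitochondrial members fell into a high and a low set by level per length. CYTB, the cytochrome b subunit of complex III, had a mean of 3607 CPM per kilobase over the 4 libraries, ND1 of complex I had 3260 and COX1, the catalytic subunit of complex IV, had 2966. ND2, ND5, ND4 and ND6 had 825, 499, 491 and 324 CPM per kilobase. By contrast, COX2 had 69.7, COX3 had 60.8, ATP6 of ATP synthase had 41.8, ND3 had 23.6, ATP8 had 7.71 and ND4L had 1.85 CPM per kilobase. COX2, COX3, ATP6, ND3 and ND4L are also the 5 members for which over 90% of the 100-base stretches of the transcript were found unchanged in an annotated nuclear transcript, mostly unprocessed pseudogenes on chromosome 1. The share was 99.9% for COX3, 99.5% for COX2 and ATP6, 98.5% for ND4L and 97.6% for ND3. It was 60.8% for ND4, 30.8% for COX1, 3.20% for ND2 and 0 for ND1, ND5, ND6, CYTB and ATP8. ATP8 was an exception only in that no annotated nuclear transcript matched it at 95% identity over at least 100 bases. It lies between COX2 and ATP6, both with over 90% unchanged stretches, and overlaps the start of ATP6. Only annotated transcripts were searched, so a copy elsewhere in the genome would have been missed.

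These sequences show how closely such copies match. Each pair covers 90 bases from GENCODE M21 transcripts, placed on the mitochondrial genome of GRCm38 on the plus strand, and capitals mark the bases at which the member and its copy differ. COX3 (MT:8607-8696) and its copy Gm28437 on chromosome 1 had no difference here or over the 783 aligned bases.
COX3: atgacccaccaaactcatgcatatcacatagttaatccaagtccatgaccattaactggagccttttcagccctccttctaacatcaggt
Gm28437: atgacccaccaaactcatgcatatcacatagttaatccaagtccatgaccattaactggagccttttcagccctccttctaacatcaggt
ND3 (MT:9459-9548) and Gm28438 on chromosome 1 differed at 1 of 345 aligned bases.
ND3: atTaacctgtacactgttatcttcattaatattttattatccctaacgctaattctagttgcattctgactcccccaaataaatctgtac
Gm28438: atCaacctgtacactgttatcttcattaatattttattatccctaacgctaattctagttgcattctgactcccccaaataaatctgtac
COX1 (MT:5336-5425), the high member shown for contrast, differed from Gm13340 on chromosome 2 at 37 of 1545 aligned bases, 3 of them in this window.
COX1: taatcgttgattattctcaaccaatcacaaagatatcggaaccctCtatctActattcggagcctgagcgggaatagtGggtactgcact
Gm13340: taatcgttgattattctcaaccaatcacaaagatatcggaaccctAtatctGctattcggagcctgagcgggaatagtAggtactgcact
A read that matches a member and a copy equally well can be counted for both, for neither or for one of them, depending on the counting tool. No source names that tool, so the levels of the 5 genes with over 90% unchanged stretches are uncertain. The same limit holds in part for ND4, with 60.8% of its stretches unchanged in a copy, and COX1, with 30.8%. Whether it also holds for ATP8 was not tested, so the level of ATP8 is uncertain too. The 5 genes held between 0.790% and 0.985% of the counts of all mitochondrial members in a library.

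**Figure D1:**
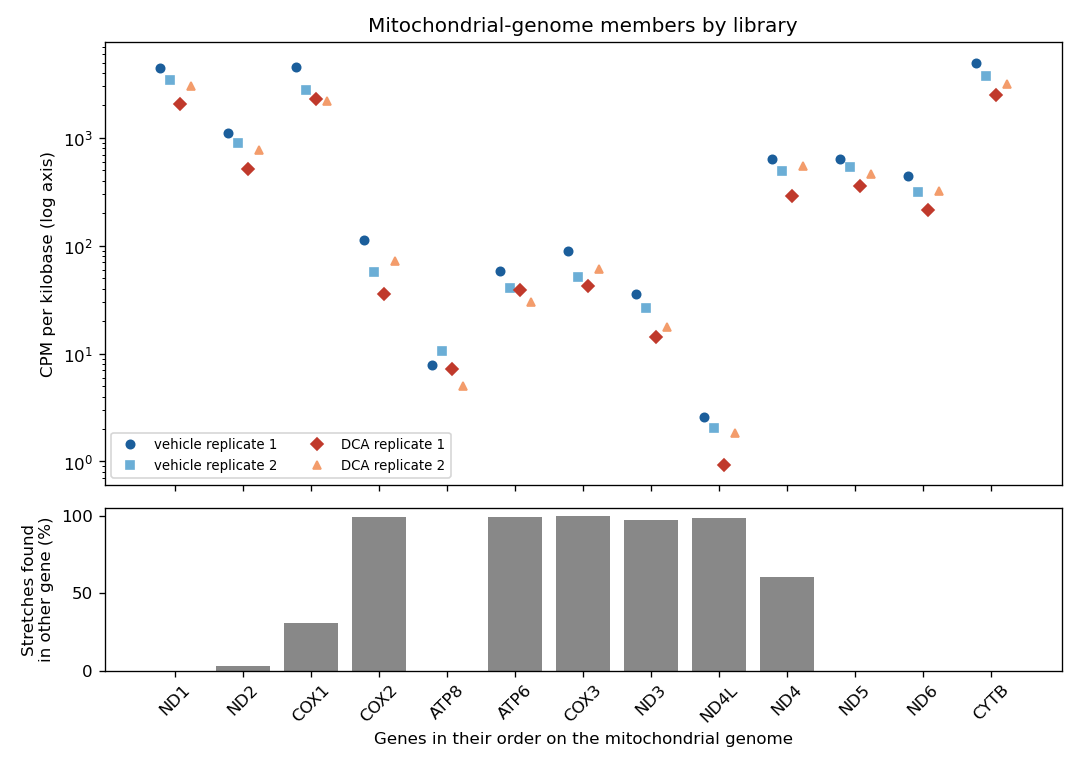
Upper panel, CPM per kilobase (log axis) of the 13 mitochondrial-genome members in each of the 4 libraries, in gene order. Lower panel, the percent of 100-base stretches of each gene found unchanged in a transcript of another gene; the 5 genes above 90% all sit under 100 CPM per kilobase on average, and vehicle replicate 1 is the highest library for every gene but ATP8.

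The question of the comparison was how expression in ILC2s changed with DCA. No gene of the 11184 tested passed an adjusted p of 0.05 in edgeR's quasi-likelihood test (0% of genes tested, and 0 of 91 members tested), so what follows describes differences that did not pass the correction. At an unadjusted p under 0.05, 3 members were lower with DCA and 0 were higher, against 1.73% of all genes tested lower and 2.54% higher. All 3 were mitochondrial. Every one of the 12 mitochondrial members tested had a negative log2 fold change, with a median of -0.61, while 65 of 79 nuclear members tested had a positive one, with a median of 0.21. Without DCA replicate 2, 31 nuclear members were positive and 47 negative, with a median of -0.05. With all 4 libraries, 50.7% of all genes tested had a positive log2 fold change, and their median was 0.01. ND4L (0.765, 0.611, 0.278 and 0.548 CPM) and 9 nuclear members did not reach the mean of 1 CPM required for testing. Because mitochondrial genes are transcribed together on long RNAs, their values are not independent of each other.

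CYTB stood at 5723 and 4315 CPM in the vehicle libraries, against 2889 and 3580 CPM in the DCA libraries. Both DCA libraries lay below both vehicle libraries, with a log2 fold change of -0.63 ± 0.26 (SE) and an unadjusted p of 0.0272 in edgeR's test. The log2 fold change of CYTB was -0.44 without vehicle replicate 1. COX1 was at 7068 and 4303 CPM in the vehicle libraries, against 3572 and 3388 CPM in the DCA libraries. Vehicle replicate 1 stood well above the other 3 libraries, and the log2 fold change was -0.71 ± 0.36 (edgeR, unadjusted p = 0.0341), or -0.33 without that library. ND1, a membrane subunit of complex I near its quinone site, was at 4272 and 3304 CPM in the vehicle libraries, against 1993 and 2910 CPM in the DCA libraries. Its groups did not overlap, and the log2 fold change was -0.63 ± 0.33 (edgeR, unadjusted p = 0.0461), or -0.38 without DCA replicate 1. None of the 3 held after correction over all genes (adjusted p = 0.999 for each, edgeR). The adjusted p with DESeq2, the tool the published methods name, was 0.0707 for CYTB, 0.111 for COX1 and 0.167 for ND1.

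Among the other complex I subunits of the mitochondrial genome, which form its proton-pumping arm, ND2 read 1158, 925, 537 and 806 CPM and ND5 read 1159, 990, 648 and 845 CPM. In both, the DCA libraries were the lower pair, with a log2 fold change of -0.63 (edgeR, unadjusted p = 0.0542) for ND2 and -0.53 (unadjusted p = 0.0572) for ND5. Without DCA replicate 1 these were -0.37 and -0.35. ND4 read 872, 677, 402 and 753 CPM and ND6, the one member transcribed from the opposite strand, read 229, 165, 110 and 168 CPM. For these genes DCA replicate 2 reached the range of the vehicle libraries, and only DCA replicate 1 lay below it. ND3 read 12.4, 9.24, 5.01 and 6.15 CPM, and its log2 fold change of -0.96 was the most negative among members.

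The remaining complex IV subunits gave 77.5, 39.5, 24.3 and 49.3 CPM for COX2, which with COX1 forms the catalytic core, and 70.3, 40.2, 33.0 and 47.3 CPM for COX3. DCA replicate 2 lay above vehicle replicate 2 in both, so the groups overlapped. The ATP synthase subunits of the membrane sector gave 39.5, 27.4, 26.4 and 20.6 CPM for ATP6 and 1.61, 2.18, 1.48 and 1.02 CPM for ATP8. ATP6 and ATP8 were lower in both DCA libraries than in either vehicle library, by narrow margins. In all, both DCA libraries lay below both vehicle libraries in 8 of 12 tested mitochondrial members, against 14.7% of all genes tested, and in 3 of 79 nuclear members. Both DCA libraries lay above in 0 mitochondrial and 16 nuclear members, 13 of them in complex I, against 18.6% of all genes tested. For nuclear members as a whole, 16 of 79 is therefore near the background. Ndufb4 and its copies Ndufb4b and Ndufb4c are all among the 13 of complex I.

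**Figure D2:**
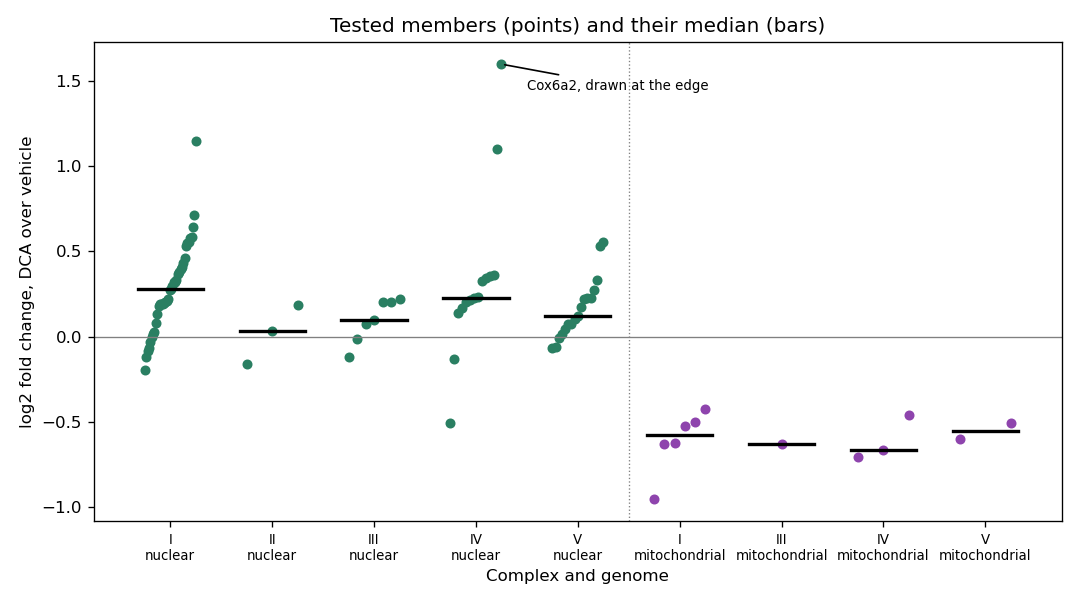
log2 fold change (DCA over vehicle, edgeR) of each tested member, by complex and genome, with the median of each set as a bar. All mitochondrial points lie below 0 and between -0.96 and -0.42, whereas the nuclear medians lie between 0.04 and 0.28; Cox6a2, at 3.16, is drawn at the upper edge.

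Because both genomes supply the same complexes, the summed levels were also set against each other within each library, where the scaling factor cancels. The ratio of mitochondrial to nuclear summed CPM was 1.07 and 0.638 with vehicle and 0.490 and 0.482 with DCA. On the log2 scale this was -0.27 ± 0.53 (SD, n = 2) with vehicle and -1.04 ± 0.02 (SD, n = 2) with DCA, a difference of -0.77. Both DCA libraries were below both vehicle libraries, but the gap between the vehicle libraries was nearly as large as the difference between groups. Without vehicle replicate 1 the difference was -0.39. For complex I the log2 ratio was 0.50 and -0.09 with vehicle and -0.70 and -0.54 with DCA. Complex III gave 1.66 and 0.87 with vehicle and 0.56 and 0.54 with DCA, a ratio set by CYTB alone on the mitochondrial side. In complex IV it was 1.11 and 0.04 with vehicle and -0.04 and -0.56 with DCA, so vehicle replicate 2 and DCA replicate 1 were close together. The complex V ratio rests on ATP6, whose level is uncertain, and ATP8, with 48 to 245 counts, and was -7.58 and -8.28 with vehicle and -8.22 and -8.79 with DCA, which overlapped. An exact permutation test of 2 against 2 libraries cannot go below p = 0.333.

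**Figure D3:**
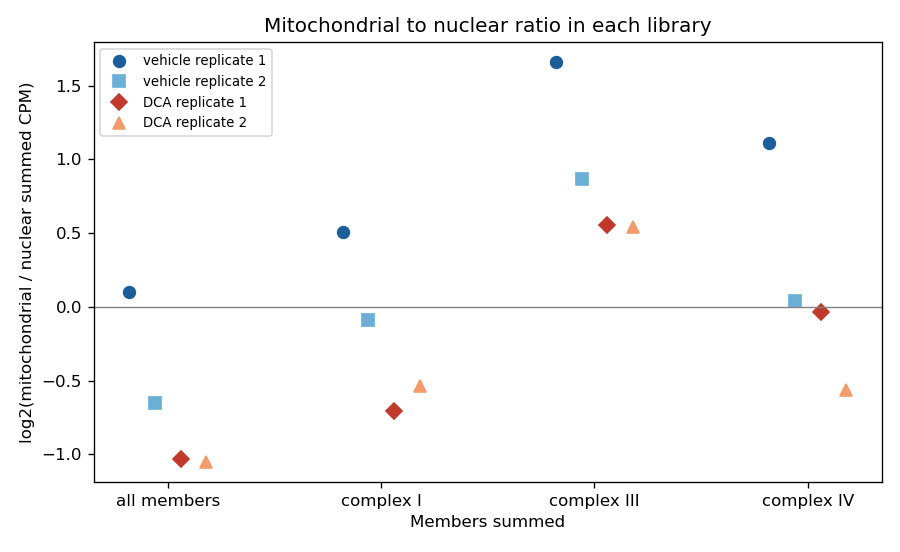
log2 of mitochondrial over nuclear summed CPM in each of the 4 libraries, for all members and for complexes I, III and IV. The DCA points lie below the vehicle points in each set, while vehicle replicate 1 stands apart from vehicle replicate 2 by 0.75 for all members.

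Among nuclear members, complex I contributed the largest number that were higher with DCA. Of 38 tested, 32 had a positive log2 fold change, with a median of 0.28 and no unadjusted p under 0.05; without DCA replicate 2, 19 were positive and 19 negative. The 7 core subunits, which carry the flavin and the iron-sulfur clusters, had a median of 0.02, with 4 positive and 3 negative. Their transcripts are 983 to 2661 bases long. The 31 other genes tested, most of them for accessory subunits that surround the core, had a median of 0.32, with 28 positive. They include Ndufb4b and the annotated pseudogenes Ndufb4c and Ndufs6b, all positive. Many of the others have transcripts of up to 800 bases, the class with the largest median difference in DCA replicate 2. The part of length and of that library in this contrast was not tested. Ndufa13 was at 212 and 242 CPM in the vehicle libraries, against 294 and 373 CPM in the DCA libraries, and its p of 0.0533 in edgeR's test was the smallest of any nuclear member; it was picked out after its values were seen. Ndufa1, with the highest complex I level per length at 839 CPM per kilobase, read 283, 291, 335 and 497 CPM. In both genes the DCA libraries were the higher pair, with DCA replicate 2 above DCA replicate 1.

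The largest positive fold changes in complex I belonged to genes of low count. Ndufb4b, a copy of the accessory subunit gene Ndufb4 that lies within another gene, read 2.92, 5.46, 8.10 and 10.5 CPM, with a log2 fold change of 1.15 (edgeR, unadjusted p = 0.273). Ndufa6, an accessory subunit of the matrix arm, read 8.61, 11.1, 16.7 and 15.6 CPM. At the other end, the core subunit Ndufs1 read 141, 105, 107 and 108 CPM and the accessory subunit Ndufa9 read 272, 414, 315 and 317 CPM. The DCA libraries of both lay inside the vehicle range, and the log2 fold changes were -0.20 and -0.12. Ndufa12 read 9.45, 11.7, 9.03 and 14.1 CPM, or 9.98 CPM per kilobase, the lowest level among complex I members with a transcript length. Of those without one, Ndufa11b had no counts.

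Complex II oxidizes succinate and links the chain to the citric acid cycle. Its flavoprotein Sdha read 253, 275, 249 and 223 CPM, with a log2 fold change of -0.16, and its iron-sulfur subunit Sdhb read 473, 612, 533 and 579 CPM, with one of 0.04. The membrane anchor Sdhc read 80.4, 70.3, 86.3 and 85.2 CPM, with a log2 fold change of 0.19. None of the 3 passed the test, and the smallest unadjusted p in edgeR's test was 0.480. Sdhd, the other membrane anchor, was listed at 0 counts in 3 libraries and at 13 in DCA replicate 2.

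Complex III passes electrons from ubiquinol to cytochrome c. Its 7 tested nuclear members had a median log2 fold change of 0.10, and in all 7 the groups overlapped. Uqcr10, the highest per length at 535 CPM per kilobase, read 210, 243, 157 and 320 CPM, so the DCA libraries were the lowest and the highest of the 4; its log2 fold change of 0.07 became -0.01 with limma. Among the others, Uqcrq (0.22) and Uqcrb (0.20) had the largest positive changes, and the core protein Uqcrc2 (-0.12) and the Rieske protein Uqcrfs1 (-0.02) the negative ones. Uqcr11 had 0, 0, 1 and 9 counts.

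In complex IV, the nuclear subunits surround the mitochondrial core and several exist as ubiquitous and tissue-restricted isoforms. The ubiquitous genes dominated: Cox8a had 1017, Cox6b1 939, Cox4i1 906 and Cox6a1 716 CPM per kilobase, among the highest levels of any nuclear member. Of 8 tissue-restricted isoforms, the 5 genes Cox4i2, Cox7b2, Cox8b, Cox8c and Ndufa4l2 were listed at 0 in every library. The 3 with counts were Cox6b2, Cox7a1 and Cox6a2, with 13.6, 8.73 and 5.12 CPM per kilobase. Cox6a2, the heart and muscle form of subunit 6a, read 1.39, 0, 0.928 and 11.6 CPM and so was high in DCA replicate 2 alone. Its log2 fold change of 3.16 (edgeR, unadjusted p = 0.244) rests on that library. Cox6b2, known from testis, read 6.67, 3.44, 7.61 and 14.1 CPM, and Cox7a1, the muscle form of subunit 7a, read 5.38, 1.79, 1.64 and 4.91 CPM.

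The 8 ubiquitous counterparts included 7 tested genes with a median log2 fold change of 0.22, 6 of them positive. Cox6a1 read 332, 386, 384 and 533 CPM, Cox6b1 read 469, 605, 513 and 735 CPM and Cox7b read 122, 179, 150 and 238 CPM. DCA replicate 2 was the highest library in each, while DCA replicate 1 lay within the vehicle range. Cox7a2l, also called Scaf1, was the exception at 136 and 197 CPM in the vehicle libraries, against 111 and 123 CPM in the DCA libraries. Its log2 fold change of -0.51 ± 0.28 (SE) was the most negative of all tested nuclear members with all 4 libraries (edgeR, unadjusted p = 0.116), and it was -0.21 without vehicle replicate 2. Cox7a1 was at -1.13 without DCA replicate 2. Cox7a2, its ubiquitous relative, had only 11, 7, 2 and 68 counts.

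ATP synthase held the most abundant nuclear member. Atp5b, the catalytic beta subunit, read 2657, 2746, 2775 and 2602 CPM, or 1407 CPM per kilobase, and its log2 fold change was -0.01. The 3 genes for subunit c, which forms the rotating ring, encode the same mature protein. Atp5g3 read 458, 480, 446 and 454 CPM, Atp5g2 read 211, 315, 271 and 281 CPM and Atp5g1 read 243, 419, 305 and 414 CPM. Their log2 fold changes were -0.06, 0.07 and 0.12, with 0.724 the smallest p in edgeR's test. Atp5g1 was the lowest of complex V per length at 73.3 CPM per kilobase, on a GENCODE principal transcript of 4715 bases. That transcript is longer than the RefSeq gene (chr11:96072793-96075694), so this rank rests on the transcript chosen. Of the 100-base stretches of Atp5g2, 86.4% recur in other genes. The largest positive changes were those of Atp5k, a small membrane subunit, at 71.3, 91.6, 82.2 and 157 CPM, and of Atp5d, the delta subunit of the central stalk, at 91.9, 117, 145 and 157 CPM. Atp5d was higher in both DCA libraries (log2 fold change 0.53, edgeR, unadjusted p = 0.0817), whereas Atp5k was higher in DCA replicate 2 alone. Atp5pb, of the peripheral stalk, had the most negative value in the complex, at -0.07.

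The positive median of nuclear members depended on DCA replicate 2 and on vehicle replicate 1. Against the vehicle mean, the median log2 difference of the 79 tested nuclear members was -0.15 and 0.14 in the vehicle libraries, -0.05 in DCA replicate 1 and 0.45 in DCA replicate 2. The fitted median of 0.21 was -0.05 when DCA replicate 2 was left out, 0.45 when DCA replicate 1 was left out, 0.04 without vehicle replicate 1 and 0.37 without vehicle replicate 2. In the same fits, the median over all genes tested was -0.04 without DCA replicate 2 and 0.05 without vehicle replicate 1. The medians of the 12 mitochondrial members against the vehicle mean were 0.19 and -0.22 with vehicle and -0.82 and -0.37 with DCA, so both DCA libraries lay below both vehicle libraries. Their fitted median of -0.61 was -0.38 without vehicle replicate 1 and also -0.38 without DCA replicate 1.

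Transcript length moved with these values. Over 70 nuclear members with a vehicle mean of at least 50 CPM, the Spearman correlation of the difference with length was -0.42 in DCA replicate 2 and 0.02 in DCA replicate 1. In vehicle replicates 1 and 2 it was -0.04 and 0.04. Over 3680 other genes it was 0.28 and -0.28 in the vehicle libraries, -0.08 in DCA replicate 1 and -0.31 in DCA replicate 2. The vehicle values mirror each other because both libraries are set against their mean. All points share 1 library each and the length of 1 transcript per gene. In DCA replicate 2, the median difference was 0.49 for the 32 members of up to 800 bases, 0.34 for the 30 of up to 2000 bases and 0.21 for the 8 longer ones. Atp5g1 is among the 8 longer ones only by the transcript chosen for it. The genes outside the respiratory chain followed the same order, at 0.38 for 163 short genes, 0.04 for 1210 of middle length and -0.13 for 2307 long ones. With all 4 libraries, the log2 fold change was positive in 90.6%, 73.3% and 75% of short, middle and long members. Among the other genes these shares were 78.5%, 54.05% and 41.1%. Short transcripts were thus 32 of the 70 nuclear members and 163 of 3680 other genes, and the part of length in the nuclear result was not tested.

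**Figure D4:**
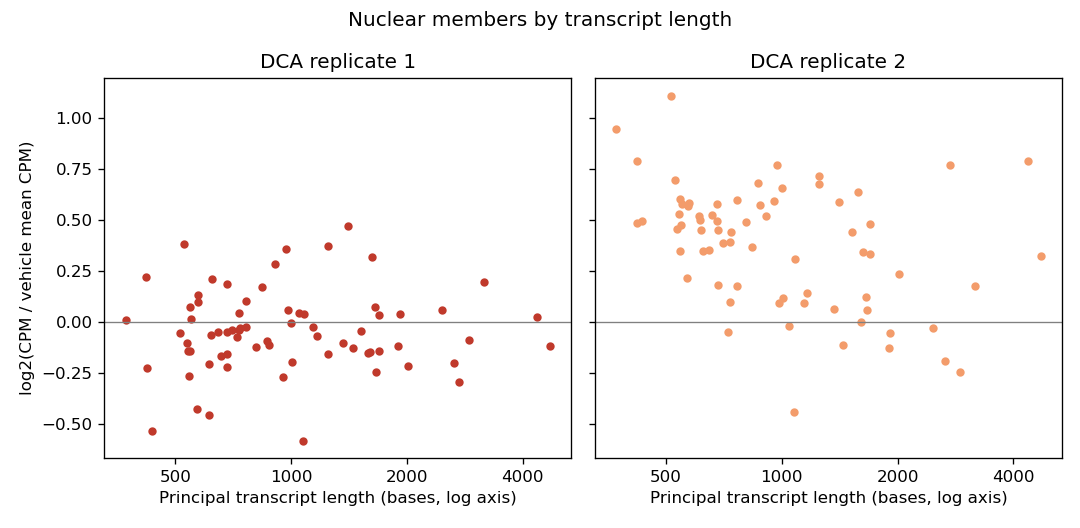
log2 difference from the vehicle mean CPM against principal transcript length (log axis) for 70 nuclear members, in DCA replicate 1 (left) and DCA replicate 2 (right). Points of DCA replicate 1 scatter around 0 at all lengths, and most points of DCA replicate 2 lie above 0, more so at short lengths.

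Of the 88 nuclear members, 18 had a mean under 20 CPM and 6 had no count in any library. Some of these are subunits of which each complex needs a copy, such as Sdhd and Uqcr11, and the table also listed Ndufa8 at 4.54, 10.9, 11.1 and 9.73 CPM. No near-identical annotated copy was found for Sdhd or Cox7a2. The cause of these low values was not tested.

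Genes that build, express or regulate the chain were taken from lists. Of 48 tested assembly factors, 30 had a positive log2 fold change and 18 a negative one, with a median of 0.05 and no unadjusted p under 0.05. Of 28 genes for expression of the mitochondrial genome, 13 were positive and 15 negative, with a median of -0.04, and 2 had an unadjusted p under 0.05, both lower, against the 1.73% of all genes tested that were lower at that threshold. Polrmt, the mitochondrial RNA polymerase, was at 29.5 and 22.2 CPM in the vehicle libraries, against 3.06 and 9.06 CPM in the DCA libraries (log2 fold change -2.09, edgeR, unadjusted p = 0.0274). Lrpprc, which stabilizes mitochondrial mRNAs, was at 111 and 51.8 CPM in the vehicle libraries, against 40.2 and 31.9 CPM in the DCA libraries (log2 fold change -1.18, edgeR, unadjusted p = 0.0355). Both failed the correction, with an adjusted p of 0.999. Tfam, which packages mitochondrial DNA, read 47.0, 59.4, 42.0 and 59.0 CPM, with overlapping groups.

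The 24 genes for electron carriers and exchange proteins were evenly split, with 12 positive and 12 negative changes and a median of -0.01. Of 9 tested genes on the list of regulators of nuclear respiratory genes, 3 were positive and 6 negative. The positive ones include Sirt3 (log2 fold change 1.01), a deacetylase gene that is neither a transcription factor nor a coactivator. Nrf1, a transcription factor of many respiratory genes, read 36.4, 46.5, 66.1 and 49.0 CPM (log2 fold change 0.47, edgeR, unadjusted p = 0.226), and Gabpa, an ETS factor, read 43.4, 33.0, 34.5 and 35.7 CPM. Yy1 read 39.2, 11.6, 18.7 and 18.7 CPM and Myc read 193, 143, 258 and 181 CPM, each with overlapping groups. The coactivator Ppargc1b read 6.12, 5.80, 2.57 and 2.996 CPM (log2 fold change -1.10, edgeR, unadjusted p = 0.389) and Pprc1 read 53.4, 30.6, 36.6 and 27.8 CPM. Gabpb1 read 67.1, 80.0, 57.1 and 77.5 CPM, Esrra read 4.81, 1.76, 0.124 and 3.96 CPM, and the deacetylase gene Sirt3 read 8.99, 6.87, 19.9 and 12.03 CPM (edgeR, unadjusted p = 0.188). Ppargc1a had 4 counts in vehicle replicate 1 and 0 in the others.

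The promoters of nuclear members were searched for the core motifs of NRF1, ETS and YY1 factors on both strands, in windows from 250 bases before to 50 bases after the RefSeq start. The NRF1 core GCGCANGCG was found in 27.5% of 69 member windows, against 15.3% of the windows of all genes tested and 6.47% of all windows. CCGGAAG, the ETS core, was in 23.2% of member windows against 20.6% of those of genes tested, and ATGGCGG, the YY1 core, was in 13.04% against 9.20%. The median log2 fold change was 0.21 for 34 tested members with any motif and 0.21 for 30 with none. Stretches of a pair of windows are printed as examples with their motifs in capitals, each from the member with the highest level per length that had a match in exon-free sequence; where the NRF1 matches of Cox6a1 overlap they run together.
Cox6a1, NRF1 core, GRCm38.p6 chr5:115348982-115349129, minus strand: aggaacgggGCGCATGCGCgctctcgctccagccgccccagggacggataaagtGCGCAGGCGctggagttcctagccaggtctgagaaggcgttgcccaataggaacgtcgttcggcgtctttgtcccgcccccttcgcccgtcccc
Atp5e, ETS core, GRCm38.p6 chr2:174464106-174464351, minus strand: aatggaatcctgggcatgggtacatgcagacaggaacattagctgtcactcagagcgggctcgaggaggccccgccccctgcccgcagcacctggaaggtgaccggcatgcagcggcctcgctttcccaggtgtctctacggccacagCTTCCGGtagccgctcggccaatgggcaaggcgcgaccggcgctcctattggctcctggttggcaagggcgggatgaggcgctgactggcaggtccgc
Atp5e encodes the epsilon subunit of ATP synthase. A match describes the letters only and is not a site of binding.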

How the data were processed

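RNA-Seq of 2 vehicle and 2 DCA libraries was used. Per the published methods, the authors prepared full-length cDNA and read it from both ends. Cutadapt 1.9 trimmed the reads, and HISAT2 2.2.1 placed them on mm10. The authors deposited whole-number read counts per gene. The table is named for FPKM, but all its values are whole and were not scaled to library size, so they were used as counts. The counting tool, annotation and strand setting are not given in the sources used here.

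Libraries were grouped by their labels. edgeR 4.0.16 in R 4.3.3 was run with TMM factors on every gene whose mean reached 1 CPM, with its 2-sided quasi-likelihood test and p-values adjusted by Benjamini and Hochberg. Each SE reflects how far log2(CPM + 1) varied within the groups. Depth ran from 26564059 to 244165712 counts, so that 3 counts equal 0.0125 to 0.115 CPM. Lengths and copies come from GENCODE M21 transcripts, the latter by BLAST+ 2.17.0 (at least 95% identity over 100 bases). Promoters and positions are RefSeq's, on GRCm38.p6; of 88 nuclear members 69 had a promoter window, and of 101 members 97 had a transcript.

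Named were all mitochondrial members, members with an unadjusted p under 0.05, per complex the highest and lowest nuclear member per length and the 2 with the largest change each way, the isoform and subunit c lists, and from other lists the genes with an unadjusted p under 0.05 and the regulators. Other genes named were chosen after their values were seen. Members and lists were chosen with earlier results of these data known. On simulated counts with the estimated spread, 200 genes were given a log2 change of 2 up or down. The test called 74 of 10706 genes, 66 of them among the 200 changed, and the other calls were false. Every tested member but Cox6a2 had a smaller change than the simulated one. The simulation therefore does not show how many changes of the members' size the test would find.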

Additional observations from a re-analysis of the deposited data

How the results depend on the processing

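No member passed an adjusted p of 0.05 with edgeR under any scaling, filter, thinning or block, with limma or with DESeq2, although DESeq2 called 126 genes in all and edgeR without a filter called 36. The number of members with an unadjusted p under 0.05 was 3 in the reported fit, 6 with total-count scaling, 5 with median-of-ratios scaling, 5 without a filter, 8 with DESeq2, 6 with limma and 8 with the replicate block; the cause was not tested. The share of all genes under that threshold was 4.27% in the reported fit, 4.31% and 4.39% with the other scalings, 4.78% without a filter, 7.01% with DESeq2, 4.62% with limma and 4.02% with the block. The replicate numbers pair the libraries by name only (correlation of same-numbered deviations 0.02), and the replicate block gave a median log2 fold change of 0.19 for nuclear and -0.62 for mitochondrial members. The change of Uqcr10 turned from 0.07 to -0.012 both with the replicate block (-0.01225) and with limma (-0.01228). Leaving out 1 library at a time, without a test, put the nuclear median between -0.05 and 0.45, the mitochondrial median between -0.81 and -0.38 and the log2 ratio difference between -1.14 and -0.39. All 12 tested mitochondrial members kept a negative change in each of these, while 18 named members changed sign in at least 1. A further pair of alternatives was chosen after seeing the data: members with under 5% recurring stretches gave medians of 0.22 and -0.61, and nuclear members over 800 bases gave 0.18. Depth limits the genes of low count most in the 3 shallower libraries.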

Other observations

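The ribosomal RNAs of the mitochondrial genome are not members, since they encode no protein. mt-Rnr2, the large one, read 2689 and 3202 CPM in the vehicle libraries, against 1818 and 2303 CPM in the DCA libraries, with both DCA libraries lower (log2 fold change -0.52, edgeR, unadjusted p = 0.0486, adjusted p = 0.999). mt-Rnr1, the small one, read 289, 474, 177 and 339 CPM in the same order of libraries, and its groups overlapped. Unlike most protein-coding mitochondrial members, both were higher in vehicle replicate 2 than in vehicle replicate 1. Among the ILC2 markers, Il1rl1 (832, 876, 598 and 533 CPM) and Klrg1 (688, 678, 463 and 356 CPM) were the 2 with an unadjusted p under 0.05 (edgeR, unadjusted p = 0.0229 and 0.0154), both lower with DCA, against 1.73% of all genes tested. Il7r (373, 350, 582 and 461 CPM, log2 fold change 0.53, edgeR, unadjusted p = 0.0531) and Il5 (8858, 7719, 9953 and 12321 CPM, log2 fold change 0.43, edgeR, unadjusted p = 0.0603) were higher in both DCA libraries. Of the 11 markers, 5 had a positive and 6 a negative change, with a median of -0.03.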
